A study of Homo sapiens with 48 samples.

Results

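The collagen genes were taken as every gene symbol made of COL, a number, A and a number, which gave 44 of the 19253 genes in the deposited table. Their RNA was followed in 48 libraries of H9, a wild-type human embryonic stem cell line, that form 24 groups of 2. Cells grew as a monolayer in E6, a defined culture medium, and differentiated for 8 days under exposure. The groups exposed together with S9 were ACE_S9, CYC_S9, IMI_S9, TDCIPP_S9, TEP_S9 and TPHP_S9, and the same 6 compounds were also given alone. A further 9 groups received BHT, BHT_CHO, BHT_COOH, BHA, TBHQ, DTBP, DG, AO_2246 or AO168_O. The solvent groups were DMSO_S9 and DMSO, all of day 8, and D0 was taken on day 0. Of the families NEOs, OPEs and SPAs, the NEOs were taken to be IMI, CYC and ACE, the OPEs TPHP, TEP and TDCIPP, and the SPAs the 9 others. That placement is an assumption from the abbreviations, although TDCIPP, TEP and TPHP are known as organophosphate esters and BHT, BHA and TBHQ as phenolic antioxidants. The labels state no dose, no culture batch and nothing on what S9 was. The name is often used for an extract of liver that converts a test compound to its metabolites. The labels do not say whether both libraries of a group came from separate cultures, so p-values measure only the spread between libraries, which may be technical.

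Collagens are secreted or membrane proteins whose chains wind in threes into a triple helix, and most chains come from a gene of their own. Fibrillar collagens such as types I, II, III, V and XI form the fibres of connective tissue and cartilage, and FACIT collagens such as types IX, XII and XIV sit on the surface of those fibres. Type IV collagen builds the sheet of the basement membrane under epithelia, and other classes form beaded filaments, short-chain networks, anchoring fibrils and membrane-bound collagens. Some chains that wind together, such as those of type IV, are encoded by neighbouring genes. The genes of types I, V, IX and XI lie on different chromosomes. Pluripotent cells rest on basement membrane, and fibrillar collagens become abundant in the embryo chiefly with mesenchyme, cartilage and notochord.

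The libraries held 17918867 to 20096130 counts, and collagen genes took between 0.166% and 0.354% of them. The markers of pluripotent cells, such as POU5F1, summed to 3301 and 4276 TPM (transcripts scaled to gene length and library size) in DMSO libraries, against 6531 and 6669 TPM in D0 libraries. Neural ectoderm markers summed to 877 and 1165 TPM in DMSO libraries, against 44.4 and 57.9 TPM in D0 libraries. Strand use in the counting is not given in the sources used here, so reads of an overlapping antisense gene cannot be told apart from those of the collagen. The DMSO_S9 libraries stood apart from all others of day 8, with 84.9 and 83.6 TPM of POU5F1, against 1214 and 795 TPM in DMSO libraries. They were also the closest pair. Their median squared difference over genes was 1.85 times that of counting noise, against 2.58 to 11.8 times in the other groups. Results on DMSO_S9 are therefore given apart from the rest. DG replicate 1 had the fewest counts and the most genes with a count, 18009 against 17078 to 17412 in the other 47 libraries, so DG is also given without it. In such bulk RNA, fewer cells of a type and less RNA per cell cannot be told apart.

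Of the 44 genes, 27 averaged at least 5 TPM in some group and 8 stayed below 1 TPM in every group, namely COL4A3, COL4A4, COL6A5, COL10A1, COL15A1, COL17A1, COL20A1 and COL24A1. TPM corrects for gene length, so these levels can be compared between genes. On day 0 the order was led by COL18A1 at 148 ± 33.0 TPM, COL1A1 at 121 ± 28.2 TPM, COL6A1 at 94.6 ± 21.2 TPM and COL9A3 at 77.3 ± 15.9 TPM (SD, n = 2). Each of these neighbours in the order overlapped the next in its 2 libraries. In DMSO cultures of day 8 the leaders were COL9A3 at 139 ± 23.3 TPM and COL18A1 at 137 ± 35.7 TPM, followed by COL1A1 at 81.5 ± 20.6 TPM and COL6A1 at 78.4 ± 17.6 TPM (SD, n = 2). COL9A3 and COL18A1 overlapped, as did COL1A1 and COL6A1. In DMSO_S9 cultures COL18A1 averaged 203 ± 3.08 TPM and COL2A1 178 ± 1.67 TPM, ahead of COL1A1 at 154 ± 8.99 TPM (SD, n = 2), and these 3 did not overlap. All 44 genes together reached 1466 TPM in DMSO_S9, against 892 TPM in DMSO, and 892 TPM in DMSO, against 760 TPM in D0, as group means. The single libraries stood at 1467 and 1465 TPM in DMSO_S9, 747 and 1038 TPM in DMSO and 650 and 870 TPM in D0. Those of DMSO and D0 overlapped, so a rise of the sum over differentiation cannot be read from them. Only COL6A5, a type VI chain, was left out of every test, with 0 to 0.11 TPM in all libraries.

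**Figure D1:**
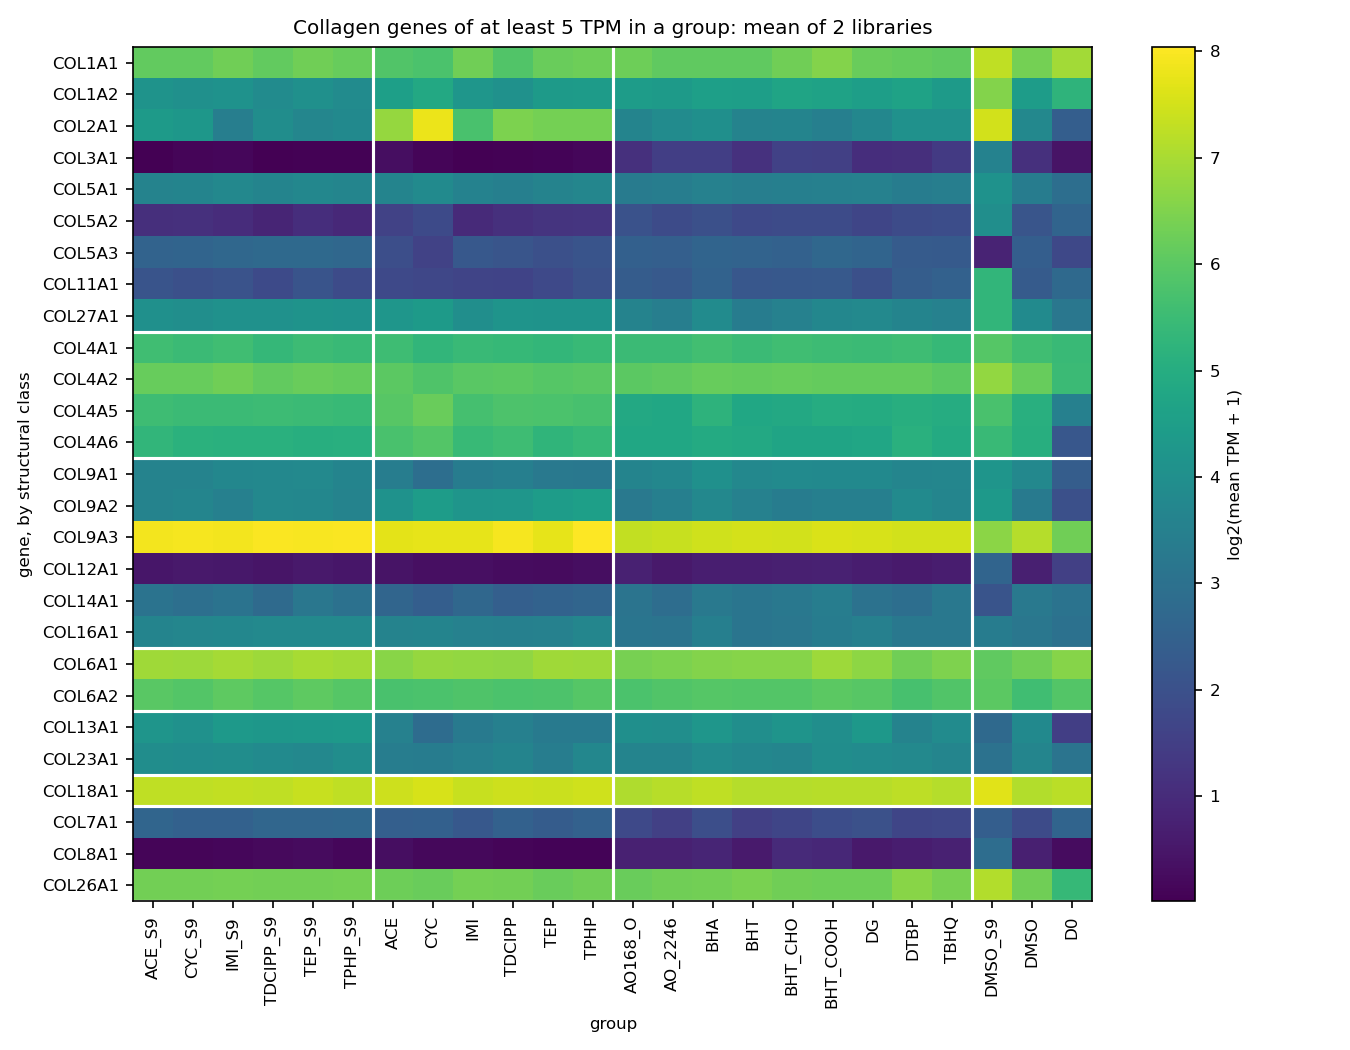
Colour gives log2(mean TPM + 1) of the 27 collagen genes that averaged at least 5 TPM in some group (rows) in all 24 groups of 2 libraries (columns). COL18A1 and COL9A3 are among the brightest rows in all columns, and COL2A1 differs most visibly between columns, at 178 TPM in DMSO_S9 and 12.5 TPM in DMSO.

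Over 8 days of differentiation, the collagens with the smallest p-values were COL4A6, a basement membrane chain, COL28A1, a relative of type VI, and COL13A1, a membrane collagen, all higher, and COL12A1, a fibre-surface collagen, which was lower. In DMSO against D0 cultures, 26 of the 43 genes tested passed an adjusted p of 0.05 in edgeR's quasi-likelihood test with Benjamini-Hochberg adjustment over all genes, 13 higher and 13 lower. That is 60.5% of the collagens, and the test called 58.2% of all genes (29.1% higher and 29.1% lower), so the share is close to the background. The median log2 fold change was 0.29 over the collagens and 0.04 over all genes tested. Relative to the fitted values, TPM ratios of DMSO over D0 sat 0.29 higher on the log2 scale, and no called collagen changed its sign between the scales. The sign differed for COL4A1, COL14A1, COL16A1 and COL22A1, which were not called. Of the 26 calls, 15 held with each of the 4 libraries left out in turn.

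When the 6 NEO and OPE compounds were set against the 9 SPA compounds, the type II and type XIX collagens and the X-linked type IV chains were higher and COL3A1, COL8A1, COL12A1, COL14A1 and COL5A2 were lower. This contrast uses no solvent library. The labels do not say whether both sets of compounds were cultured in the same run, so family and run cannot be told apart. Of the collagens, 34 of 42 passed the test, 12 higher and 22 lower. The share was 81.0%, against 66.5% of all genes called, 33.1% higher and 33.4% lower. The median log2 fold change was -0.26 over the collagens and 0.008 over all genes tested. With each library left out in turn, 32 of the 34 calls held, and the exceptions were COL10A1, called at a log2 fold change of -0.57 and not called without IMI replicate 1 or TPHP replicate 1, and COL16A1, called at 0.18 and not called without CYC replicate 2 or TEP replicate 2 (0.14 to 0.17). TPM ratios sat 0.18 higher than the fitted values on the log2 scale, which turned the sign of COL6A6 alone, a type VI chain that was not called.

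**Figure D2:**
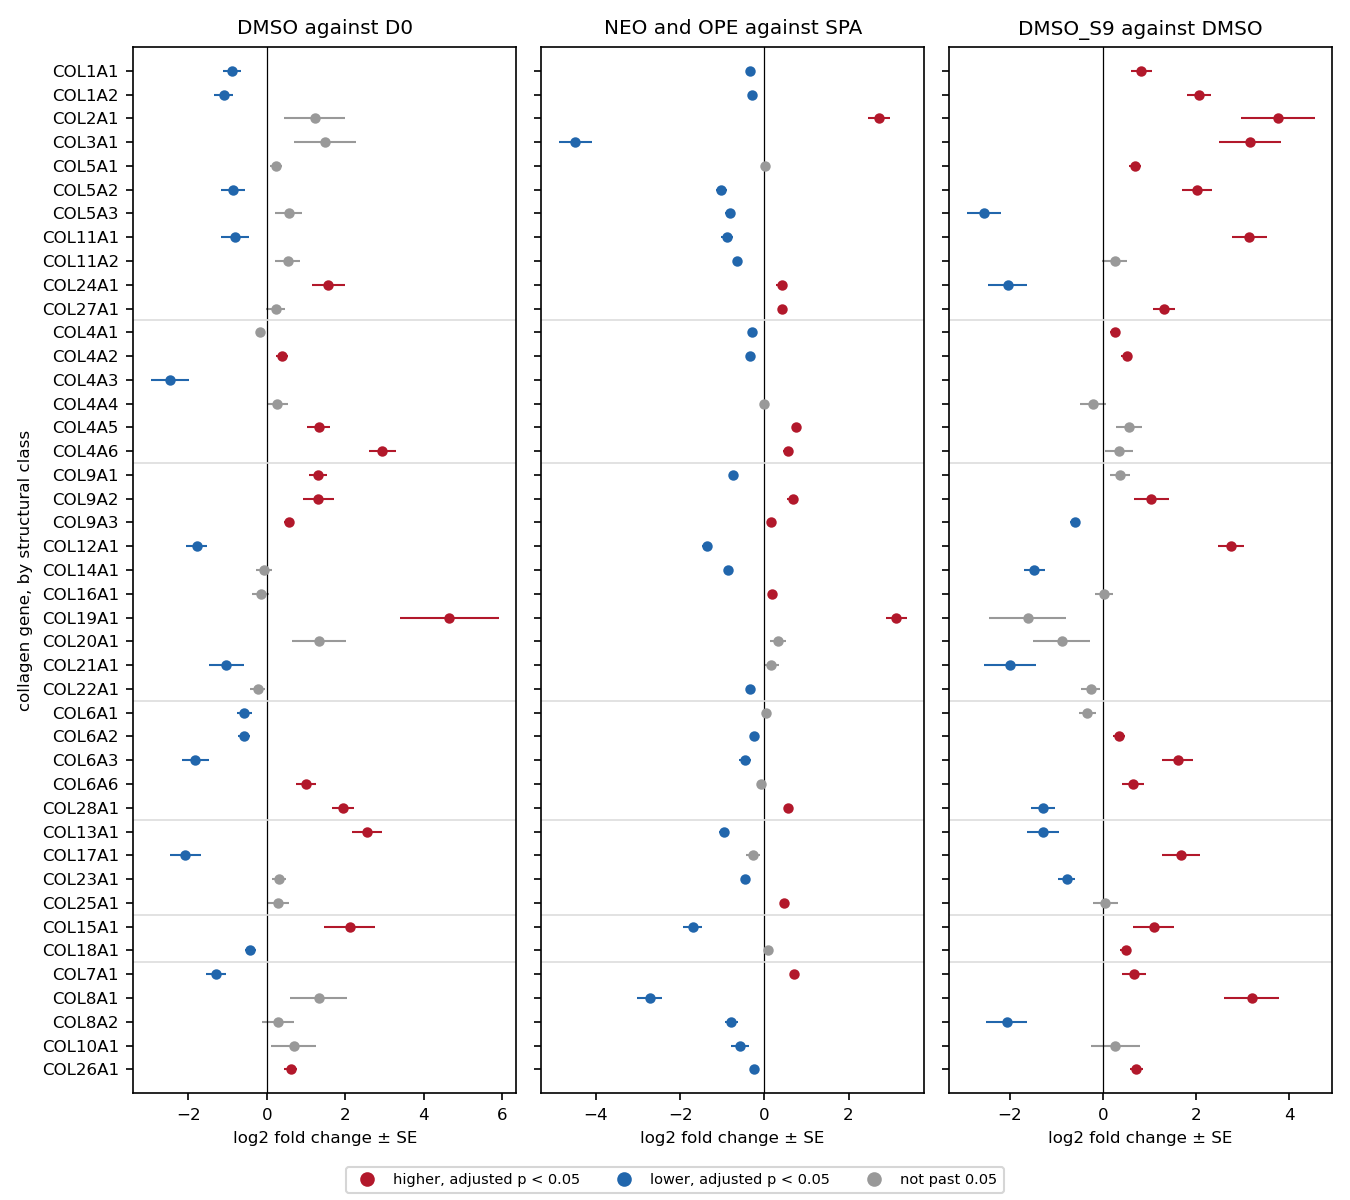
Fitted log2 fold change (x axis, bars are ± SE) of each collagen gene tested (rows, by structural class) in 3 comparisons, with genes past an adjusted p of 0.05 in red where higher and blue where lower. COL4A6 at 2.94 and COL13A1 at 2.55 are high in DMSO against D0, COL3A1 at -4.49 and COL19A1 at 3.14 are the extremes of NEO and OPE against SPA, and 8 of 11 fibrillar genes are red in DMSO_S9 against DMSO.

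Type IV collagen has 6 chain genes, arranged as 3 head-to-head pairs that share a start region. COL4A1 and COL4A2, the chains of nearly every basement membrane, lie on chromosome 13 (110148963 to 110307233 on the minus strand and 110305812 to 110513209 on the plus strand of GRCh38, in the GENCODE annotation). COL4A5 and COL4A6 lie on the X chromosome (108439844 to 108697545, plus, and 108155607 to 108439497, minus) and are known for the basement membranes of smooth muscle and some epithelia. In RefSeq on GRCh38.p14 the starts of the first pair are 127 bases apart and those of the second 380 bases apart. The start regions of both pairs are shown because the 2 genes of a pair can be compared from a shared stretch of DNA. Each sequence runs from 250 bases before to 50 bases after the start, 5′ to 3′ on the gene's strand, from RefSeq on GRCh38.p14. Capitals mark CCAAT or its reverse complement ATTGG, and GGGCGG or its reverse complement CCGCCC, the CCAAT box and the GC box.
COL4A1, chr13:110307108-110307407, minus strand: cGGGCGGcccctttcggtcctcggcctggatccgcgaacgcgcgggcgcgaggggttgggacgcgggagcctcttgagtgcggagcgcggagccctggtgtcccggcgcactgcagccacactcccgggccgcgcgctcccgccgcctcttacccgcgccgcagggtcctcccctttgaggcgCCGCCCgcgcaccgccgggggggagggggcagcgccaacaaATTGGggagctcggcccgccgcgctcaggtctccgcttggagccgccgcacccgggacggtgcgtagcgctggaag
COL4A2, chr13:110307034-110307333, plus strand: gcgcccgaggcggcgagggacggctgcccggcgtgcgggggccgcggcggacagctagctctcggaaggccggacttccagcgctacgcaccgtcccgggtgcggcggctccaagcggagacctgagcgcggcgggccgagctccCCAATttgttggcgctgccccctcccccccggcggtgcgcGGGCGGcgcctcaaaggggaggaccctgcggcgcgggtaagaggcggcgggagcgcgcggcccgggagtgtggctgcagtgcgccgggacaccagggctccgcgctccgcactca
COL4A5, chrX:108439588-108439887, plus strand: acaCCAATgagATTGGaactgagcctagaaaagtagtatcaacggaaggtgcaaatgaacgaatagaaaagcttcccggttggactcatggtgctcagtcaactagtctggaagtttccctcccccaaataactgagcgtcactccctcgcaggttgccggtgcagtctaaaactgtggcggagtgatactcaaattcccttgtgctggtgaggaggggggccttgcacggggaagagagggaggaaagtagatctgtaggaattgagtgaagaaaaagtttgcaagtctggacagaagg
COL4A6, chrX:108439409-108439708, minus strand: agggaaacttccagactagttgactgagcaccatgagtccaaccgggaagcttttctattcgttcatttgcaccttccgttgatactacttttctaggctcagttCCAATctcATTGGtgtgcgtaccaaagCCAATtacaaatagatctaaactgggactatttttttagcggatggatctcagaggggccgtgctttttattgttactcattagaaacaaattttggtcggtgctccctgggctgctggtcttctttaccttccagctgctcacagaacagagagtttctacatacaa
The windows of COL4A1 and COL4A2 share 226 bases and consist of G or C to 76.7% and 77.7%. Those of COL4A5 and COL4A6 share 121 bases and consist of G or C to 49.3% and 43.7%. The CCAAT box occurs 1 time in the window of COL4A1, 1 time in that of COL4A2, 2 times in that of COL4A5 and 3 times in that of COL4A6. Because the windows overlap, the matches of COL4A1 and COL4A2 are the same site, and those of COL4A5 are among those of COL4A6. The CCAAT box stands in 34.6% of the 35116 promoter windows of the RefSeq table. The GC box occurs 2 times in the window of COL4A1 and 1 time in that of COL4A2, where it is a site also counted for COL4A1. It stands in 45.0% of all windows, while no match lies in the windows of COL4A5 and COL4A6.

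COL4A5 stood at 24.0 and 41.8 TPM in DMSO libraries, against 10.4 and 10.5 TPM in D0 libraries. COL4A6 stood at 24.4 and 39.8 TPM in DMSO libraries, against 3.03 and 4.06 TPM in D0 libraries. For both genes the DMSO libraries lay above the D0 libraries, with log2 fold changes of 2.94 ± 0.34 (SE, adjusted p = 2.06e-08) for COL4A6 and 1.32 ± 0.29 (SE, adjusted p = 0.000243) for COL4A5. The TPM ratio of COL4A5 to COL4A6 had a median of 1.02 in DMSO and 3.00 in D0. COL4A1 stood at 42.0 and 52.1 TPM in DMSO libraries, against 39.1 and 46.6 TPM in D0 libraries, which overlapped and gave a log2 fold change of -0.16 with an adjusted p of 0.2. COL4A2 stood at 58.9 and 82.7 TPM in DMSO libraries, against 34.4 and 53.1 TPM in D0 libraries. Its log2 fold change of 0.39 was called but fell to between 0.09 and 0.19 and lost its call without DMSO replicate 2 or D0 replicate 1. The pair COL4A3 and COL4A4, chains of the kidney filter, was scarce, with COL4A3 at 0.1 and 0.12 TPM in DMSO libraries, against 0.46 and 0.38 TPM in D0 libraries (log2 fold change -2.47 ± 0.49, SE, adjusted p = 8.71e-05).

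Between compound families, the pair COL4A5 and COL4A6 and the pair COL4A1 and COL4A2 moved in opposite directions. COL4A5 ran from 46.8 through a median of 56.3 to 72.7 TPM in the 12 NEO and OPE libraries, against 18.1, 31.8 and 43.0 TPM in the 18 SPA libraries. COL4A6 ran from 35.3 through 45.8 to 63.6 TPM in NEO and OPE libraries, against 16.7, 27.2 and 41.9 TPM in SPA libraries. The ranges of COL4A5 did not overlap and those of COL4A6 overlapped, and both were called higher, at log2 fold changes of 0.76 ± 0.10 for COL4A5 and 0.55 ± 0.11 for COL4A6 (SE). COL4A1 and COL4A2 were called lower in the same contrast, at -0.29 ± 0.04 and -0.34 ± 0.05 (SE). COL4A1 had a median of 42.5 TPM in NEO and OPE libraries, against 45.2 TPM in SPA libraries, and COL4A2 62.3 TPM in NEO and OPE libraries, against 69.8 TPM in SPA libraries, with overlapping ranges. COL4A4 did not pass, at 0.00 ± 0.10 (SE, adjusted p = 0.985), and COL4A3 was too low to be tested on day 8.

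**Figure D3:**
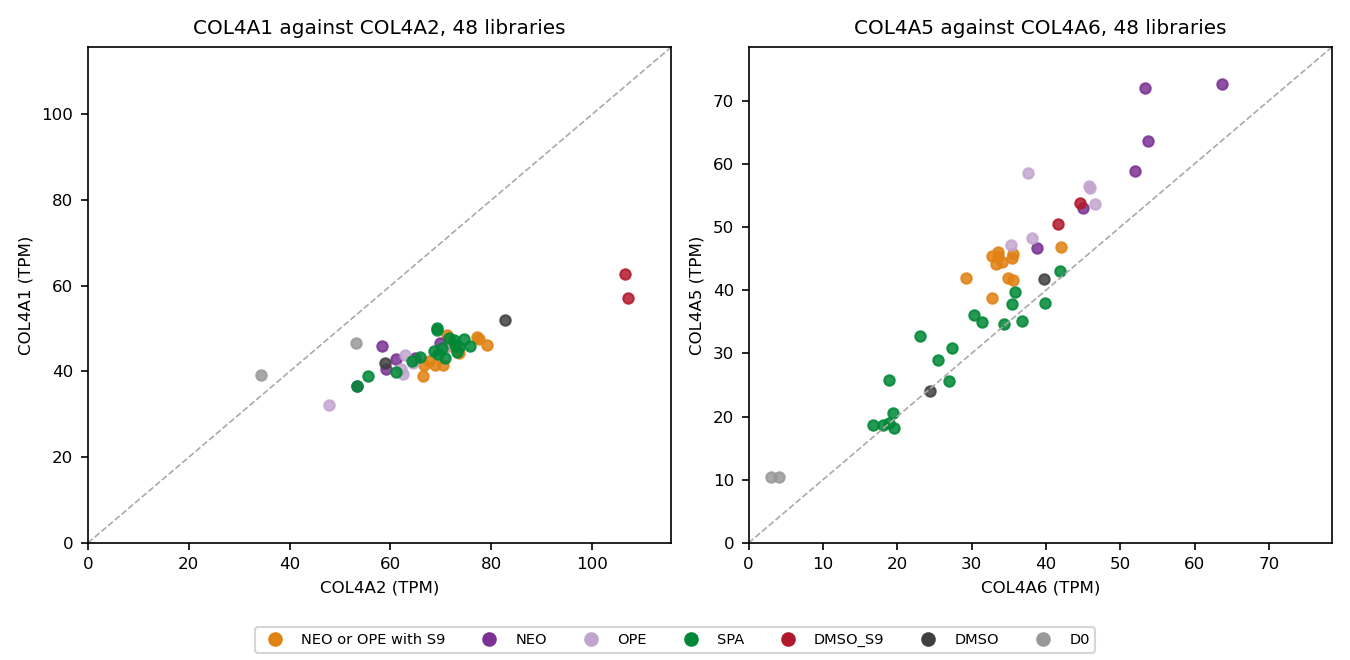
TPM of COL4A1 against COL4A2 and of COL4A5 against COL4A6, 1 point a library, coloured by group set, with a dashed line where both chains are equal. In the COL4A5 and COL4A6 plot the D0 libraries lie above the line at 3.03 and 4.06 TPM of COL4A6 and the ACE and CYC libraries lie furthest out, while in the COL4A1 and COL4A2 plot all day-8 libraries lie below the line.

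The fibrillar class holds 11 genes, and in DMSO against D0 cultures 1 was called higher and 4 lower, with a median log2 fold change of 0.23 against 0.04 over all genes, of which 58.2% were called. COL1A1 and COL1A2 encode the chains of type I collagen, the main fibre of bone, skin and tendon. COL1A1 stood at 66.9 and 96.1 TPM in DMSO libraries, against 101 and 141 TPM in D0 libraries. COL1A2 stood at 15.3 and 26.6 TPM in DMSO libraries, against 34.6 and 37.9 TPM in D0 libraries. The groups did not overlap for either gene, and the log2 fold changes were -0.89 ± 0.23 for COL1A1 and -1.10 ± 0.25 for COL1A2 (SE). The call of COL1A1 was lost without D0 replicate 2, at -0.57. COL5A2, a type V chain that regulates fibre thickness, stood at 2.83 and 3.99 TPM in DMSO libraries, against 4.91 and 5.16 TPM in D0 libraries, a log2 fold change of -0.86 that lost its call without DMSO replicate 1 or D0 replicate 2 (-0.77 to -0.67). COL11A1, a type XI chain of cartilage fibres, was called at -0.81 with an adjusted p of 0.0499, and it lost its call without DMSO replicate 1, D0 replicate 1 or D0 replicate 2. COL24A1, a minor fibrillar chain, was called higher at 1.56 ± 0.42 (SE) from at most 0.39 TPM, and lost its call without D0 replicate 1, at 1.12. Neither COL5A1, the partner of COL5A2, at 0.23 ± 0.16 (SE), nor COL27A1, at 0.23 ± 0.25 (SE), nor COL5A3, at 0.55 ± 0.34 (SE), nor COL3A1, at 1.49 with an adjusted p of 0.104, passed the test.

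Between compound families 3 fibrillar genes were called higher and 7 lower, with a median log2 fold change of -0.35 against 0.008 over all genes, of which 66.5% were called. COL3A1 encodes type III collagen, the fibre of blood vessels and soft organs, and COL5A2 lies next to it on chromosome 2 in the opposite orientation (188974320 to 189012746, plus, and 189031896 to 189225312, minus). COL3A1 ran from 0 through a median of 0.07 to 0.43 TPM in NEO and OPE libraries, against 0.48, 1.45 and 2.93 TPM in SPA libraries. The ranges did not overlap, and in counts the gene had 58 in all 12 NEO and OPE libraries, against 1550 in the 18 SPA libraries. The ratio of library-scaled counts (CPM) was 0.0575 (95% exact interval 0.0434 to 0.0747, counting error only), and the fitted log2 fold change was -4.49 ± 0.39 (SE, adjusted p = 1.2e-10). COL5A2 ran from 0.71 through 1.52 to 2.99 TPM in NEO and OPE libraries, against 1.91, 2.53 and 3.55 TPM in SPA libraries, with overlapping ranges and a log2 fold change of -1.02 ± 0.13 (SE). COL5A1 did not pass, at 0.02 ± 0.05 (SE), so the TPM ratio of COL5A1 to COL5A2 had a median of 6.96 in NEO and OPE libraries, against 3.84 in SPA libraries. COL5A3, the third type V chain, was lower at -0.82 ± 0.12, COL11A1 at -0.88 ± 0.14, and COL1A1 and COL1A2 at -0.35 ± 0.08 and -0.29 ± 0.09 (SE). COL11A1 ran from 1.76 to 3.26 TPM in NEO and OPE libraries, against 2.02 to 6.71 TPM in SPA libraries, with overlapping ranges. In DMSO and SPA groups, replicate 2 of COL11A1 lay above replicate 1 in 10 of 10 groups, with a median ratio of 1.76. COL27A1, a fibrillar chain of cartilage, was higher at 0.41 ± 0.09 (SE). COL24A1 was also higher, at 0.41, and COL11A2, a type XI chain, lower, at -0.64.

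**Figure D4:**
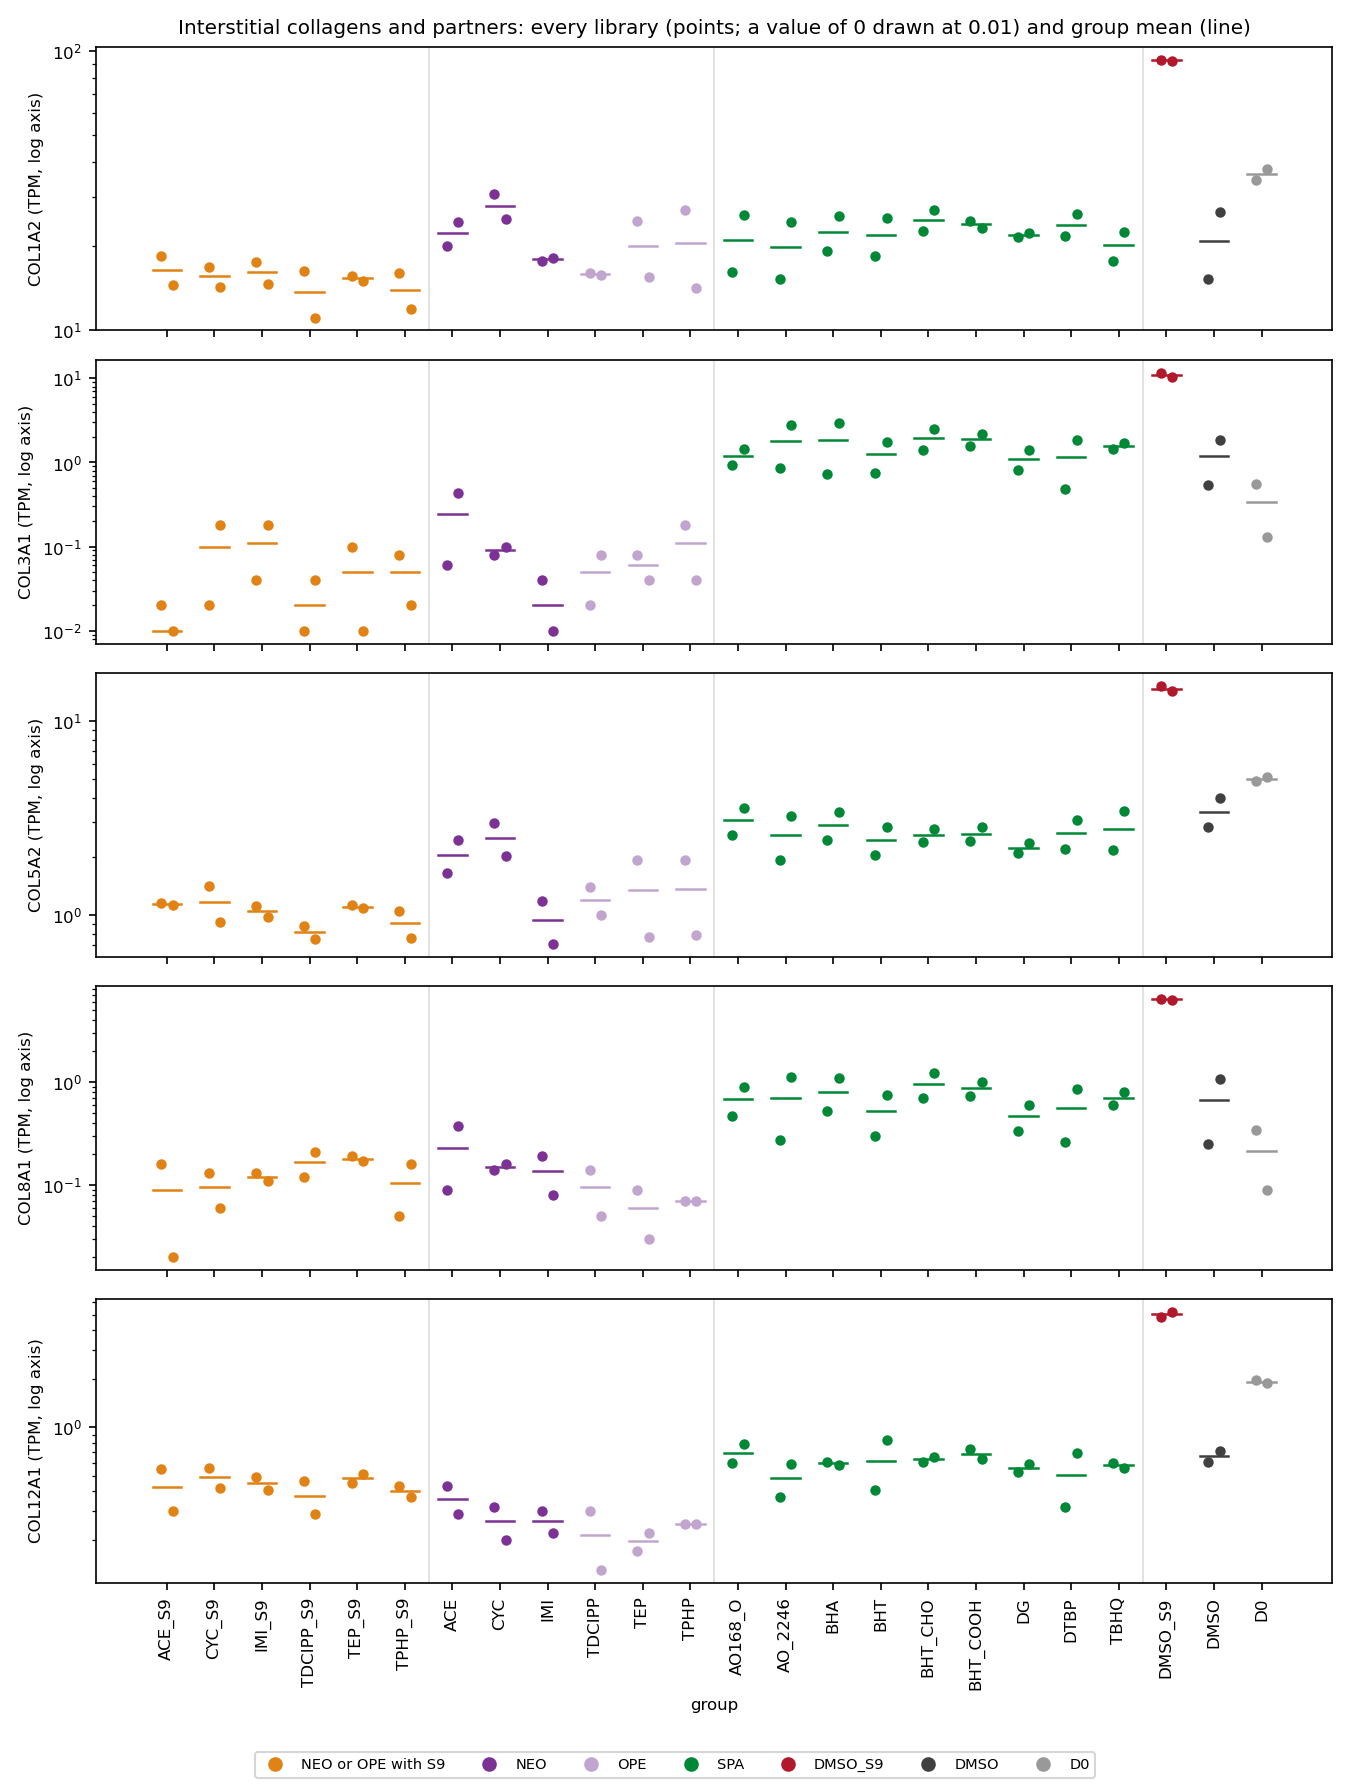
TPM in every library (log axis, a value of 0 drawn at 0.01) of COL1A2, COL3A1, COL5A2, COL8A1 and COL12A1 by group, with the group mean as a line. All 5 genes are highest in DMSO_S9, and COL3A1 lies at or below 0.43 TPM in every NEO and OPE library, with or without S9.

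COL2A1 encodes type II collagen, the main fibre of cartilage and of the notochord sheath, and lies on chromosome 12 (47972965 to 48004554, minus). It stood at 8.07 and 17.0 TPM in DMSO libraries, against 3.16 and 5.45 TPM in D0 libraries. The groups did not overlap, but the log2 fold change of 1.23 ± 0.78 (SE) had an adjusted p of 0.18. In compound groups without S9, COL2A1 stood at 58.0 and 160 TPM with ACE, 264 and 183 TPM with CYC, 32.1 and 71.5 TPM with IMI, 74.3 and 99.6 TPM with TDCIPP, 133 and 28.02 TPM with TEP and 142 and 21.9 TPM with TPHP. All but TPHP replicate 2 lay above every SPA library, where COL2A1 ran from 5.68 through 13.3 to 25.7 TPM. The contrast of NEO and OPE with SPA compounds gave a log2 difference of 2.72 ± 0.27 (SE, with an adjusted p of 1.29e-09). Against DMSO the log2 fold change was 3.06 for ACE, 4.09 for CYC, 1.99 for IMI, 2.79 for TDCIPP, 2.64 for TEP and 2.66 for TPHP, all called except IMI, with an adjusted p of 0.113. Of these calls only that of CYC held with each library left out. The calls of ACE and TDCIPP were lost without DMSO replicate 1 or the compound's replicate 2 (lowest 2.11 and 2.40), and those of TEP and TPHP without DMSO replicate 1 or the compound's replicate 1 (lowest 1.09 and 0.79), TPHP also without DMSO replicate 2. The 9 SPA compounds gave -0.21 to 0.48 against the same DMSO libraries, with no call.

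Type IX collagen decorates type II fibres and is built from COL9A1, COL9A2 and COL9A3. COL9A3, on chromosome 20 (62816244 to 62841159, plus), stood at 123 and 156 TPM in DMSO libraries, against 66.0 and 88.5 TPM in D0 libraries. COL9A1 stood at 11.9 and 12.99 TPM in DMSO libraries, against 4.25 and 4.09 TPM in D0 libraries. COL9A2 stood at 5.97 and 11.8 TPM in DMSO libraries, against 2.54 and 3.34 TPM in D0 libraries. No group overlapped for any of the 3 chains, and all were called higher, at log2 fold changes of 0.56 ± 0.12 for COL9A3, 1.31 ± 0.22 for COL9A1 and 1.31 ± 0.40 for COL9A2 (SE). COL9A2 lost its call without DMSO replicate 2 or D0 replicate 1, at 0.81 to 1.12. Between families the chains parted: COL9A1 had a median of 8.77 TPM in NEO and OPE libraries, against 12.6 TPM in SPA libraries, and COL9A2 one of 17.4 TPM in NEO and OPE libraries, against 11 TPM in SPA libraries. COL9A1 fell at -0.75 ± 0.08 while COL9A2 rose at 0.67 ± 0.13 and COL9A3 at 0.17 ± 0.04 (SE), and the TPM ratio of COL9A2 to COL9A1 had a median of 1.90 in NEO and OPE libraries, against 0.822 in SPA libraries. COL9A3 was the most widely called collagen against DMSO, higher in 6 of 6 NEO and OPE compounds (0.48 for ACE to 0.87 for TPHP) and in 5 of 9 SPA compounds, from contrasts that share the DMSO libraries.

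COL19A1 encodes type XIX collagen, a scarce FACIT known from basement membrane zones, and lies beside COL9A1 on chromosome 6 (69866571 to 70209976, plus, and 70215061 to 70303083, minus). It ran from 1.12 through a median of 1.64 to 2.59 TPM in NEO and OPE libraries, against 0.08, 0.15 and 0.29 TPM in SPA libraries. The ranges did not overlap, and the log2 fold change of 3.14 ± 0.24 (SE, adjusted p = 1.27e-11) had the smallest p of all collagens in that contrast. DMSO libraries stood at 0.31 and 0.27 TPM, against 0 and 0.02 TPM in D0 libraries. In counts this was 65 in DMSO libraries, against 2 in D0 libraries, a CPM ratio of 32.3 (95% exact interval 8.60 to 273, counting error only). COL12A1 and COL14A1 encode types XII and XIV, which bridge fibres in tendon and skin. COL12A1 stood at 0.61 and 0.71 TPM in DMSO libraries, against 1.97 and 1.87 TPM in D0 libraries, a fitted log2 change of -1.79 ± 0.27 (SE, adjusted p = 2.06e-06). It ran from 0.13 through 0.25 to 0.43 TPM in NEO and OPE libraries, against 0.32, 0.60 and 0.83 TPM in SPA libraries, at -1.36 ± 0.12 (SE). COL14A1 ran from 3.86 through 4.99 to 6.16 TPM in NEO and OPE libraries, against 6.39, 7.30 and 12.02 TPM in SPA libraries, which did not overlap, at -0.85 ± 0.08 (SE). COL21A1, another FACIT, was called lower in DMSO than in D0 at -1.04 ± 0.45 (SE) and lost that call without DMSO replicate 2, D0 replicate 1 or D0 replicate 2 (-1.09 to -0.57). COL16A1, at 5.67 and 10.7 TPM in DMSO libraries, against 5.63 and 8.59 TPM in D0 libraries, did not pass there (-0.16 ± 0.22, SE), nor did COL20A1 and COL22A1.

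**Figure D5:**
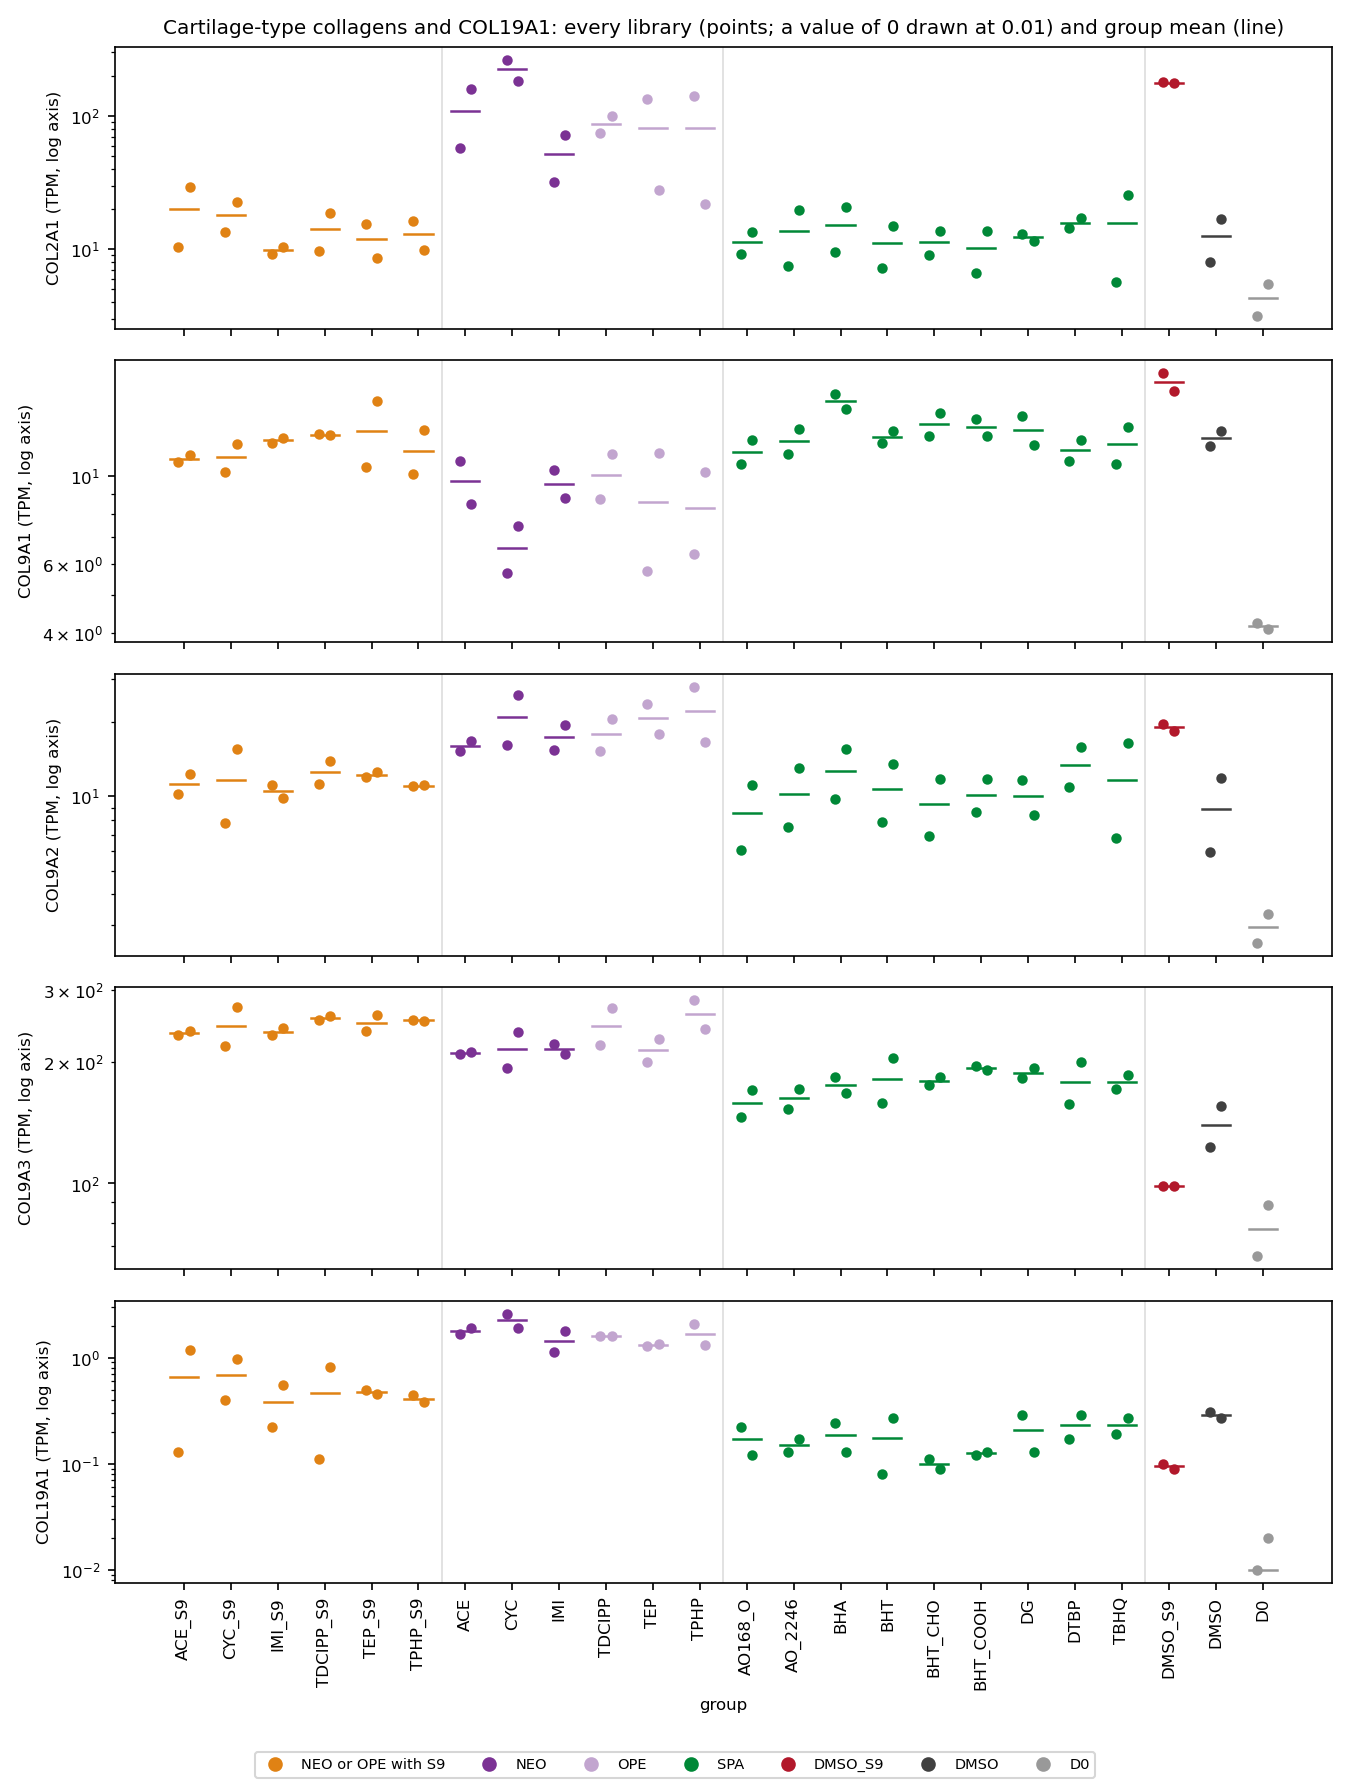
TPM in every library (log axis, a value of 0 drawn at 0.01) of COL2A1, COL9A1, COL9A2, COL9A3 and COL19A1 by group, with the group mean as a line. COL2A1 reaches 264 TPM with CYC and 179 TPM in DMSO_S9, and COL19A1 is at or above 1.12 TPM in every NEO and OPE library without S9.

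These cartilage collagens were set beside other genes of cartilage and of other cell types. The list of 8 chondrocyte and notochord markers summed to 87.1 to 275 TPM in NEO and OPE libraries, against 20.0 to 61.6 TPM in SPA libraries. Most of that sum was HAPLN1, a link protein of cartilage matrix, at 76.0 to 264 TPM in NEO and OPE libraries, against 10.4 to 51.2 TPM in SPA libraries. SOX9, the regulator of cartilage genes, had a median of 8.55 TPM in NEO and OPE libraries, against 9.03 TPM in SPA libraries, and ACAN, the cartilage proteoglycan, 0.515 TPM in NEO and OPE libraries, against 0.645 TPM in SPA libraries. FOXA2, a notochord regulator, averaged below 0.1 TPM in both sets. Of the 6 markers tested, 1 was called higher and 2 lower. Among markers of other cell types, neural ectoderm genes were lower in 8 of 8, with a median log2 fold change of -2.04, and amnion genes higher in 6 of 7, with a median of 4.25, against 0.008 over all genes. Of 7 surface ectoderm and epithelium markers 5 were higher and 1 lower (median 1.45), and of 6 endothelial markers 1 was higher and 3 lower. Surface ectoderm and epithelium markers summed to 4801 to 8498 TPM in NEO and OPE libraries, against 1437 to 3153 TPM in SPA libraries. Endothelial markers summed to 8.31 to 18.3 TPM in NEO and OPE libraries, against 18.3 to 36.2 TPM in SPA libraries, and CDH5, a junction protein of that cell type, averaged below 0.1 TPM in both sets. Amnion markers summed to 58.2 to 477 TPM in NEO and OPE libraries, against 13.4 to 21.2 TPM in SPA libraries, and mesoderm and fibroblast markers to 59.9 to 87.0 TPM in NEO and OPE libraries, against 91.1 to 115 TPM in SPA libraries. Their part in the collagen changes was not tested.

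COL6A1, COL6A2 and COL6A3 form type VI collagen, the beaded filament around cells of many tissues. COL6A1 stood at 66.0 and 90.9 TPM in DMSO libraries, against 79.7 and 110 TPM in D0 libraries. COL6A2 stood at 42.4 and 51.8 TPM in DMSO libraries, against 48.7 and 67.1 TPM in D0 libraries. The libraries overlapped for both genes, which were called lower at log2 fold changes of -0.57 ± 0.20 and -0.59 ± 0.15 (SE); COL6A1 lost its call without DMSO replicate 1 or D0 replicate 2 (-0.42 to -0.29), and COL6A2 without D0 replicate 2 (-0.31). COL6A3, the largest chain, was far scarcer at 0.60 and 0.61 TPM in DMSO libraries, against 1.38 and 2.06 TPM in D0 libraries, a fitted log2 change of -1.83 ± 0.35 (SE, adjusted p = 4.3e-05). COL6A6, an alternative to COL6A3, was higher at 1.00 ± 0.26, and COL28A1, a related collagen of nerve, at 1.95 ± 0.28 (SE). In NEO and OPE libraries COL6A1 had a median of 110 TPM, against 90.7 TPM in SPA libraries, with overlapping ranges, and did not pass (0.04 ± 0.07, SE). COL6A2 was called lower there at -0.26 ± 0.05, COL6A3 at -0.46 ± 0.14, and COL28A1 higher at 0.56 ± 0.09 (SE).

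Among membrane collagens, COL13A1, found at cell contacts and the neuromuscular junction, stood at 13 and 13.2 TPM in DMSO libraries, against 1.79 and 1.86 TPM in D0 libraries. The groups did not overlap, and the log2 fold change was 2.55 ± 0.38 (SE, adjusted p = 1.55e-06). COL17A1, a hemidesmosome collagen of epidermis, stood at 0.19 and 0.30 TPM in DMSO libraries, against 0.69 and 1.02 TPM in D0 libraries, at -2.08 ± 0.40 (SE). Between families COL13A1 ran from 4.79 through 8.97 to 13.2 TPM in NEO and OPE libraries, against 11.02, 14.9 and 20.7 TPM in SPA libraries, with overlapping ranges, and was lower at -0.96 ± 0.13 (SE). COL23A1 was lower at -0.45 ± 0.07 and COL25A1, a collagen of neurons, higher at 0.47 ± 0.10 (SE). COL18A1, the multiplexin of basement membranes that releases endostatin, was among the most abundant collagens everywhere, at 111 and 162 TPM in DMSO libraries, against 125 and 171 TPM in D0 libraries. These overlapped, and its call of -0.42 ± 0.13 (SE) was lost without DMSO replicate 1 or D0 replicate 2 (-0.23 to -0.13). Its relative COL15A1 had 21 counts in DMSO libraries, against 4 in D0 libraries, and 40 counts in 12 NEO and OPE libraries, against 200 in 18 SPA libraries, and was called in both contrasts.

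COL7A1 forms the anchoring fibrils that hold epithelium to stroma, and it stood at 1.96 and 3.17 TPM in DMSO libraries, against 4.82 and 5.41 TPM in D0 libraries. The groups did not overlap, at a log2 fold change of -1.30 ± 0.26 (SE). It ran from 3.37 through 4.23 to 5.35 TPM in NEO and OPE libraries, against 1.12, 2.44 and 3.59 TPM in SPA libraries, with overlapping ranges, and was higher at 0.70 ± 0.10 (SE). COL8A1 and COL8A2 form the hexagonal network of vessel walls and the cornea. COL8A1 ran from 0.03 through 0.09 to 0.37 TPM in NEO and OPE libraries, against 0.26, 0.71 and 1.23 TPM in SPA libraries. The ranges overlapped, with a log2 fold change of -2.73 ± 0.31 (SE) from 77 counts in NEO and OPE libraries, against 707 in SPA libraries, and COL8A2 was lower at -0.79 ± 0.15 (SE). In DMSO against D0 COL8A1 did not pass, at 1.32 with an adjusted p of 0.116. COL26A1, a small secreted collagen, stood at 65.1 and 89.2 TPM in DMSO libraries, against 32.9 and 49.0 TPM in D0 libraries, which did not overlap, and its call of 0.61 ± 0.17 (SE) was lost without DMSO replicate 2 or D0 replicate 1 (0.33 to 0.43). COL10A1, the collagen of hypertrophic cartilage, stayed at or below 0.88 TPM in every library.

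Single compounds without S9 were tested against DMSO, and all these tests share the DMSO libraries. ACE gave 4 called collagens of 42 tested, 3 higher and 1 lower (9.52%, against 8.55% of all genes called, 4.95% higher and 3.6% lower). CYC gave 21, 10 higher and 11 lower (50%, against 29.6% of all genes, 14.4% higher and 15.2% lower). IMI gave 7, 2 higher and 5 lower (16.7%, against 6.21% of all genes, 3.48% higher and 2.74% lower). TDCIPP gave 10, 4 higher and 6 lower (23.8%, against 9.06% of all genes, 5.5% higher and 3.56% lower). TEP gave 10, 4 higher and 6 lower (23.8%, against 12.7% of all genes, 6.78% higher and 5.89% lower). TPHP gave 10, 5 higher and 5 lower (23.8%, against 11.3% of all genes, 6.5% higher and 4.83% lower). The median log2 fold change of the collagens lay between -0.19 for IMI and -0.07 for ACE, against -0.0049 to 0.0014 over all genes. COL19A1 was called higher in 6 of 6 compounds (2.12 for TEP to 2.85 for CYC) and COL14A1 lower in 6 of 6 (-1.08 for CYC to -0.73 for IMI). COL3A1 was called lower in 5 of 6, COL12A1 in 5 of 6, COL5A2 in 4 of 6 and COL8A1 in 4 of 6, while COL9A2 and COL7A1 were higher in 3 of 6. With CYC alone, COL4A5 at 1.04, COL4A6 at 0.80, COL25A1 at 0.86 and COL5A1 at 0.44 were called higher, and COL8A2 at -1.49, COL13A1 at -1.14, COL9A1 at -1.01 and COL4A2 at -0.41 lower. COL3A1 had 25 counts with ACE, 9 with CYC, 2 with IMI, 5 with TDCIPP, 6 with TEP and 11 with TPHP, against 124 in DMSO. The CPM ratio to DMSO was lowest for IMI at 0.0164 (95% exact interval 0.00196 to 0.0605, counting error only) and highest for ACE at 0.205 (0.128 to 0.316).

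Only COL9A1, COL2A1, COL12A1, COL14A1, COL9A3 and COL19A1 with CYC, and COL9A3 with TDCIPP, TEP and TPHP, kept their call with each library left out in turn. When only the groups compared were fitted, edgeR lost COL9A3 with TEP (adjusted p = 0.0813) and with TPHP (adjusted p = 0.0612), and called 6 collagens with TEP and 1 with TPHP in place of 10 with each. The share of all genes called in those fits is not given here. Every call of ACE was lost without DMSO replicate 1 or ACE replicate 2, which left COL9A3 at 0.37 to 0.46 and COL19A1 at 2.41 to 2.66. With IMI, COL19A1 and COL15A1 were lost without any one of the 4 libraries, and COL3A1, COL5A2, COL12A1, COL14A1 and COL9A3 without IMI replicate 2, among others. With TDCIPP every other call was lost without TDCIPP replicate 2. With TEP, COL4A1, COL3A1, COL2A1, COL9A2, COL12A1 and COL14A1 were lost without TEP replicate 1, COL5A2 without TEP replicate 2 or DMSO replicate 2, and COL8A1 and COL19A1 without either TEP library. With TPHP, COL7A1, COL3A1, COL2A1, COL9A2, COL12A1, COL14A1 and COL19A1 were lost without TPHP replicate 1, and COL5A2 and COL8A1 without TPHP replicate 2. CYC gave 10 to 17 calls with 1 library left out, and 15 of its 21 calls were lost in some such fit, among them COL1A1 (called at -0.69) without DMSO replicate 2 or either CYC library, COL5A3 (-1.20) without CYC replicate 1 (-0.80), and COL18A1 (0.38) without DMSO replicate 1 or CYC replicate 2 (0.19 to 0.33).

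The 9 SPA compounds had 0 to 3 called collagens each against DMSO. AO168_O, BHA, BHT_COOH and TBHQ had no called collagen, with 0%, 0.00621%, 0.00621% and 0.161% of all genes called by edgeR. At an unadjusted p under 0.05 they had 2, 3, 6 and 2 collagens, and DESeq2 called 0, 0, 1 and 1. The shares of all genes at that cut and with DESeq2 are not given here, so nothing particular to collagens can be read from these counts. AO_2246 had 3, COL9A3 and COL6A2 higher and COL24A1 lower (10.5% of all genes called, 5.8% higher and 4.65% lower). BHT had COL9A3 and COL6A2 higher (4.6% of all genes called, 2.95% higher and 1.65% lower), and so had DG (5.49%, 1.96% higher and 3.53% lower). Without DMSO_S9 and DG replicate 1, DG had 0 and BHT 1. BHT_CHO had COL9A3 alone (2.15%, 1.34% higher and 0.813% lower), as had DTBP (3.07%, 2.28% higher and 0.794% lower). COL9A3 rose by log2 fold changes of 0.44 to 0.54 in these 5, and all 9 of these calls were lost without DMSO replicate 1. Where it lost its call, COL9A3 was at 0.33 to 0.60. A p above the threshold does not show that these compounds act as DMSO does.

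With S9 added to the solvent, most fibrillar collagens rose. In DMSO_S9 against DMSO cultures 30 of 42 collagens were called, 21 higher and 9 lower (71.4%, against 45.7% of all genes called, 21% higher and 24.7% lower), with a median log2 fold change of 0.35 against 0.0037 over all genes. Of the 11 fibrillar genes 8 were higher and 2 lower, with a median of 1.30. COL2A1 stood at 179 and 177 TPM in DMSO_S9 libraries, against 8.07 and 17.0 TPM in DMSO libraries, and COL11A1 at 37.1 and 40.3 TPM in DMSO_S9 libraries, against 3.06 and 4.85 TPM in DMSO libraries. COL1A2 stood at 93.1 and 92.5 TPM in DMSO_S9 libraries, against 15.3 and 26.6 TPM in DMSO libraries. COL3A1 stood at 11.6 and 10.4 TPM in DMSO_S9 libraries, against 0.54 and 1.83 TPM in DMSO libraries. The DMSO_S9 libraries lay above the DMSO libraries for all 4 genes, at log2 fold changes of 3.75 ± 0.79, 3.14 ± 0.37, 2.06 ± 0.25 and 3.15 ± 0.67 for COL2A1, COL11A1, COL1A2 and COL3A1 (SE). COL12A1 rose by 2.74 ± 0.28, COL8A1 by 3.19 ± 0.59 and COL5A2 by 2.02 ± 0.32 (SE). COL5A3 was lower at -2.56 ± 0.37, COL8A2 at -2.07 ± 0.44, COL24A1 at -2.05 ± 0.42, COL14A1 at -1.48 ± 0.22 and COL9A3 at -0.60 ± 0.11 (SE). COL11A1 reached 29.9 times the TPM of COL11A2, its partner chain, in DMSO_S9 as a median, against 4.11 times in DMSO. Of the 30 calls 20 held with each library left out, and those of COL1A1, COL7A1, COL4A1, COL4A2, COL18A1, COL15A1, COL6A2, COL6A6, COL9A2 and COL21A1 did not; each of them was lost without DMSO replicate 1, with COL1A1 at 0.64 and COL4A2 at 0.33.

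Stem cell markers were mostly lower in the same comparison, 7 of 8, with a median log2 fold change of -2.66. They summed to 1389 and 1404 TPM in DMSO_S9 libraries, against 3301 and 4276 TPM in DMSO libraries. Mesoderm and fibroblast markers summed to 89.0 and 94.6 TPM in DMSO_S9 libraries, against 89.7 and 111 TPM in DMSO libraries. In D0 libraries they summed to 271 and 339 TPM. Of that list, PRRX1 alone averaged below 0.1 TPM in DMSO and TBXT alone in DMSO_S9, so a similar sum does not show similar markers. Chondrocyte and notochord markers summed to 141 and 143 TPM in DMSO_S9 libraries, against 44.2 and 48.7 TPM in DMSO libraries. HAPLN1 made up 128 and 129 TPM of that sum in DMSO_S9 libraries, while MATN1, COMP and FOXA2 averaged below 0.1 TPM. The part of these shifts in the collagen result was not tested. DMSO_S9 was 1 pair of libraries, so S9 and anything else particular to that pair cannot be told apart.

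In the compounds, COL2A1 and COL19A1 were lower with S9. COL2A1 ran from 8.59 through a median of 11.9 to 29.5 TPM in the 12 compound libraries with S9, against 21.9, 87.0 and 264 TPM in the 12 without S9. COL19A1 ran from 0.11 through 0.445 to 1.17 TPM with S9, against 1.12, 1.64 and 2.59 TPM without S9. Both pairs of ranges overlapped at their ends. Over the 6 compounds alone, COL2A1 was lower with S9 at -2.74 ± 0.31 (SE, adjusted p = 4.65e-07) and COL19A1 at -1.71 ± 0.25 (SE), while COL13A1 was higher at 1.02 ± 0.13, COL5A3 at 0.86 ± 0.11, COL12A1 at 0.77 ± 0.14, COL14A1 at 0.55 ± 0.06 and COL9A1 at 0.47 ± 0.10 (SE). This fit without DMSO_S9 called 27 of 42 collagens, 18 higher and 9 lower (48.3% of all genes called, 24% higher and 24.3% lower). COL3A1 and COL8A1 stayed low with S9, at 34 and 75 counts in 12 compound libraries, and their changes did not pass. In the same fit all 8 neural ectoderm markers were higher with S9 (median log2 fold change 1.04), while 6 of 7 amnion markers (median -2.78) and 6 of 7 surface ectoderm and epithelium markers (median -0.99) were lower, against a median of -0.0037 over all genes. Their part in the collagen changes was not tested. Against the SPA groups, the 6 compounds with S9 still had 23 called collagens (47% of all genes called), a comparison chosen after seeing the data. There COL3A1 was at -5.18 ± 0.43, COL8A1 at -2.60 ± 0.30, COL5A2 at -1.54 ± 0.14 and COL7A1 at 0.95 ± 0.09 (SE), and COL2A1 did not pass, at -0.01 with an adjusted p of 0.982.

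Averaged over all 7 treatments, S9 gave 17 called collagens, 12 higher and 5 lower (28.2% of all genes called, 13.2% higher and 15% lower), with COL19A1 at -1.70 ± 0.25, COL2A1 at -2.23 ± 0.56 and COL12A1 at 1.13 ± 0.21 (SE). The effect of S9 in DMSO differed from its mean effect in the 6 compounds for 27 collagens (50.9% of all genes called), a test added after seeing the data. COL2A1 differed most, by 6.48 ± 0.92 (SE, adjusted p = 2.21e-06) on the log2 scale. COL26A1, COL9A2 and COL11A1 were not called in the average when some libraries were left out, with COL11A1 at 0.54 without DMSO replicate 2 and COL9A2 lost without 15 different libraries.

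Each compound with S9 was also tested against DMSO_S9, in comparisons that share those 2 libraries. Called collagens numbered 32 for ACE_S9 (48.5% of all genes called), 32 for CYC_S9 (50.4%), 30 for IMI_S9 (49.5%), 31 for TDCIPP_S9 (50.6%), 31 for TEP_S9 (50.6%) and 32 for TPHP_S9 (50.4%), with 13 higher in each. COL2A1 was lower by log2 values between -4.15 for IMI_S9 and -3.12 for ACE_S9, COL11A1 between -3.88 and -3.55, COL12A1 between -3.66 and -3.16 and COL1A2 between -2.68 and -2.46. COL5A3 was higher by 2.64 to 2.91 and COL9A3 by 1.30 to 1.47. COL3A1 had 34 counts in 12 compound libraries with S9, 3 of them at 0, against 1106 in both DMSO_S9 libraries, a CPM ratio of 0.00521 (95% exact interval 0.00359 to 0.00733, counting error only). COL9A3, COL2A1, COL11A1, COL12A1, COL1A2, COL5A3 and COL3A1 kept these calls with each library left out, whereas COL16A1, COL18A1 and COL19A1 lost theirs in some such fits of every compound.

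Compounds of the same family were compared in 10 pairs, whose doses are not given in the labels. The pairs were CYC with IMI, CYC with ACE, IMI with ACE, TPHP with TDCIPP, TEP with TDCIPP, TEP with TPHP, BHT_CHO with BHT, BHT_COOH with BHT, BHT_COOH with BHT_CHO, and TBHQ with BHA. The names BHT_CHO and BHT_COOH were taken to mean an aldehyde and an acid made from BHT. edgeR called 0 of 42 collagens in each pair after adjustment over all genes of that pair, where it called 0.0621% of all genes for CYC against IMI and 0% for the other 9. At an unadjusted p under 0.05 there were 8, 3, 4, 0, 1, 2, 0, 0, 0 and 1 collagens in that order, with CYC against IMI first. DESeq2 called 2 over all pairs. For the unadjusted cut and for DESeq2 the shares of all genes are not given here, so nothing particular to collagens can be read from these counts. The 95% interval lay within a log2 fold change of 1 either way for 23 collagens with CYC against IMI and for 33 with BHT_COOH against BHT_CHO, the least and the most. The largest difference over the pairs was that of COL3A1 with IMI against ACE, at -3.48 (95% interval -6.71 to -0.25), from 2 counts against 25. COL2A1 with CYC against IMI differed by 2.10 (95% interval 0.60 to 3.60), and the lowest adjusted p was 0.0745, of COL25A1 in the same pair, at 1.05. For BHT_CHO against BHT the largest difference was that of COL8A1, at 0.92 (95% interval -0.33 to 2.16).

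Genes that make, process and bind collagen were counted in the same fits. In DMSO against D0, where 58.2% of all genes were called (29.1% higher and 29.1% lower), each list but 1 held calls in both directions. Of 14 prolyl and lysyl hydroxylases and partners tested, 4 were higher and 6 lower, with P4HA1, a prolyl hydroxylase chain that stabilises the helix, at 1.25 ± 0.17 and P3H2 at -1.59 ± 0.23 (SE). Of 11 chaperones and export factors 4 were higher and 4 lower; MIA3, which loads collagen into carriers, was at 1.17 ± 0.13 and SERPINH1, the collagen chaperone, at -0.34 ± 0.10 (SE). Of 7 crosslinking enzymes 3 were higher and 2 lower, with LOXL2 at 1.00 ± 0.14 and LOX, which links fibrils, at -1.48 ± 0.35 (SE). Of 8 propeptide processing genes 3 were higher and 3 lower, and of 12 receptors 3 were higher and 4 lower, with DDR2 at -2.37 ± 0.40 (SE). Of 7 collagenases and inhibitors 0 were higher and 4 lower, led by MMP9 at -1.99 ± 0.32 (SE). Of 15 basement membrane partners 5 were higher and 5 lower, with NID2, a linker of laminin and type IV collagen, at 2.02 ± 0.27 and LAMA3 at -2.54 ± 0.37 (SE). Of 12 fibril partners 3 were higher and 5 lower, with FBN2 at 2.77 ± 0.57 and VCAN at -2.52 ± 0.26 (SE). The medians of these 8 lists ran from -0.47 for collagenases to 0.78 for crosslinking enzymes, against 0.04 over all genes.

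In NEO and OPE against SPA compounds, 9 of 15 basement membrane partners were higher and 3 lower, with a median log2 fold change of 0.27 against 0.008 over all genes, of which 66.5% were called (33.1% higher and 33.4% lower). LAMA5 was at 0.57 ± 0.05, LAMB1 at 0.63 ± 0.07 and LAMC1 at 0.51 ± 0.06, and NID2 at -0.78 ± 0.09 (SE). Of 7 crosslinking enzymes 0 were higher and 5 lower (median -0.69), with LOXL2 at -0.73 ± 0.04 and LOX at -0.89 ± 0.15 (SE). Of 14 hydroxylases 1 was higher, PLOD2, a lysyl hydroxylase, at 0.76 ± 0.09, and 8 were lower (median -0.21), such as P4HA1 at -0.68 ± 0.06 (SE). Of 12 fibril partners 1 was higher, FN1, fibronectin, at 1.18 ± 0.13, and 7 were lower (median -0.48), such as FBN1, fibrillin of microfibrils, at -1.54 ± 0.14 and BGN at -1.85 ± 0.16 (SE). Chaperones were 2 higher and 6 lower of 11, receptors 3 higher and 4 lower of 12, propeptide processing 3 higher and 3 lower of 8, and collagenases 2 higher and 3 lower of 7.

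In DMSO_S9 against DMSO, of 7 crosslinking enzymes 6 were higher and 0 lower (median 0.96 against 0.0037 over all genes, of which 45.7% were called, 21% higher and 24.7% lower), with LOX at 2.96 ± 0.35 and PXDN, which links type IV collagen, at 1.42 ± 0.11 (SE). Of 12 fibril partners 6 were higher and 2 lower (median 1.80), with BGN, a small proteoglycan on fibrils, at 2.55 ± 0.39, FBN1 at 2.23 ± 0.32 and ACAN at -2.81 ± 0.51 (SE). Of 14 hydroxylases 7 were higher and 2 lower, of 15 basement membrane partners 7 higher and 1 lower, of 7 collagenases and inhibitors 5 higher and 1 lower, and of 12 receptors 4 higher and 1 lower. Chaperones were 3 higher and 1 lower of 11, and propeptide processing 1 higher and 3 lower of 8. BMP1, the protease that trims fibrillar procollagen, was higher at 0.70 ± 0.16 and ADAMTS14 lower at -2.25 ± 0.35 (SE).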

How the data were processed

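RNA from 48 H9 libraries was enriched with oligo-dT, primed at random and sequenced on an MGI instrument, per the labels' protocols. The deposited table gives expected counts, TPM and FPKM per gene, each of them as deposited by the authors and named per the file headers. Of the expected counts in the deposited table, 43.4% were not whole, and they were rounded before testing. The build was GRCh38.p13, per the submitters' processing notes, with aligner and counter not given in the sources used here. Deposited FPKM values were used only for chain ratios as a check beside TPM.

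Counts were tested with edgeR 4.0.16 (filterByExpr, TMM scaling, quasi-likelihood F test, Benjamini-Hochberg adjustment over all genes, threshold 0.05) in R 4.3.3. The DMSO against D0 fit used all 48 libraries and 16209 genes, the day-8 fit 16113 genes and the S9 fit 15982 genes. The expected counts of the deposited table sum to 17918867 to 20096130 per library, and exact 95% intervals cover counting error only. DESeq2 1.42.0, other scaling, no filter, fewer groups and left-out libraries were tried. The test was checked on simulated data. Collagens with a mean of 5 TPM in a group, or called with at least a 2-fold change in a main comparison, were described by name, up to 10 each way by p, and genes of each list up to 6 each way. The collagens and the gene lists were chosen with earlier results of these data known. Promoters came from RefSeq on GRCh38.p14, where 32 of the 44 genes matched.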

Additional observations from a re-analysis of the deposited data

Results flagged for a closer look

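The effect of S9 in DMSO minus its mean effect in the 6 compounds was tested against 0 with edgeR, adjusted over all genes. It was called positive for 17 and negative for 10 of 42 collagens (64.3%). Of all genes, 50.9% were called, 24.2% positive and 26.7% negative. For 19 of the called collagens, listed here, the difference was at least 2-fold. The share of all genes past that cut was not counted. Groups of 2 libraries allow no gene-wise check for an outlying library within a group. The difference was positive, so that S9 went with more RNA in DMSO than in the compounds, for COL2A1 at 6.48, COL3A1 at 3.84, COL8A1 at 3.06, COL11A1 at 2.84, COL5A2 at 2.54, COL1A2 at 2.48, COL12A1 at 1.96, COL17A1 at 1.76, COL9A2 at 1.74, COL6A3 at 1.60 and COL27A1 at 1.38 on the log2 scale. It was negative for COL5A3 at -3.43, COL8A2 at -2.85, COL13A1 at -2.32, COL24A1 at -2.06, COL21A1 at -2.05, COL14A1 at -2.02, COL23A1 at -1.22 and COL28A1 at -1.18 on the log2 scale. All of these rest on the 2 DMSO_S9 libraries, in which POU5F1 stood at 84.9 and 83.6 TPM, against 1214 and 795 TPM in DMSO libraries.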

How the results depend on the processing

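No called collagen changed direction under any alternative in which its call was compared. With DESeq2, 360 calls held and 3 were lost. DESeq2's size factors kept 366 and lost 0, and no filter on low counts kept 357 and lost 9. Fitting only the groups compared kept 318 and lost 28. Leaving out DMSO_S9 and DG replicate 1 kept 140 and lost 8. Calls not compared under a setting are in neither number, so these losses are not out of the same number of calls. Fitting only the groups compared gave 6 collagens for TEP, 1 for TPHP, 0 for AO_2246, BHT, BHT_CHO, DG and DTBP, and 5 over the 10 compound pairs. No filter gave 1 for BHT and 1 for DG. Leaving out DMSO_S9 and DG replicate 1 gave 1 for BHT, 0 for DG and 27 for the average of S9. DESeq2 gave 2 for BHT_CHO, 1 for BHT_COOH, 2 for DTBP, 1 for TBHQ and 2 over the 10 pairs. A replicate block, with the replicate number as a term of the fit, gave 8 for ACE, 1 for BHT_COOH, 2 for DTBP and 1 for TBHQ and lost 0 calls. Numbers are not stated to pair cultures: same-numbered deviations correlated above 0.1 in 69 of 253 pairs of day-8 groups and below -0.1 in 30, although in 35 of 45 pairs among DMSO and SPA groups they were above 0.1. The cause of these changes was not tested. The counts of this section are given without the share of all genes called under the same setting. A change particular to collagens therefore cannot be read from them.

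With 1 library left out, the collagens called ranged from 22 to 25 for DMSO against D0, 33 to 35 for NEO and OPE against SPA, 20 to 29 for DMSO_S9 against DMSO and 15 to 22 for the average of S9. Against DMSO they ranged from 0 to 6 for ACE, 10 to 17 for CYC, 0 to 5 for IMI, 1 to 9 for TDCIPP, 2 to 12 for TEP and 2 to 9 for TPHP. For SPA compounds they ranged from 0 to 0 for AO168_O and BHA, 0 to 5 for AO_2246, 0 to 3 for BHT, DG and DTBP, and 0 to 1 for BHT_CHO, BHT_COOH and TBHQ. Against DMSO_S9 they ranged from 26 to 29 for ACE_S9, 27 to 30 for CYC_S9, 24 to 27 for IMI_S9, 26 to 29 for TDCIPP_S9, 27 to 31 for TEP_S9 and 27 to 29 for TPHP_S9, and over the 10 pairs from 0 to 0. Groups of 2 libraries then hold 1, whose spread is assumed to be that of the other groups.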

Other observations

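In DMSO and the 9 SPA groups, replicate 2 had more TPM than replicate 1 in 10 of 10 groups for COL4A5 (median ratio 1.75), COL4A6 (1.65), COL3A1 (2.04), COL8A1 (2.00), COL5A2 (1.39), COL11A1 (1.76) and COL26A1 (1.30). For COL21A1 replicate 2 was lower in 10 of 10, with a median ratio of 0.611. Whether these numbers mark a shared culture or plate is not given in the labels.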
